A study of Mus musculus with 85 samples.

Results

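The liver-enriched miRNAs mmu-miR-122-5p, mmu-miR-192-5p and mmu-miR-194-5p (written without the mouse prefix from here on) were followed through 85 mouse hearts. They were 3 of the 1977 mature miRNAs listed in the deposited count table and 3 of the 548 with a count in any library. They were picked by name, with earlier results of these data known, to ask how often liver-enriched miRNAs were detected in heart, whether they were high in the same hearts, and whether they followed blood miRNAs or the order of the libraries. All mice were females of inbred strains from the HMDP, the Hybrid Mouse Diversity Panel, in which strains differ in genotype. They ate chow for 8 weeks and then, for 8 more, a diet rich in fat and sucrose (HF/HS), and were 16 weeks old. Each heart gave 1 library, there was 1 diet group and no control group, and the labels used here carry an animal number and a library number but no strain. The library number is the only order the labels give, and it is not stated to be an order of dissection, extraction or sequencing.

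MicroRNAs (miRNAs) are short RNAs that lower the output of target mRNAs, which they recognise mainly through the seed, bases 2 to 8 of the mature strand. miR-122 is the dominant miRNA of hepatocytes, where it is known for its part in lipid and cholesterol metabolism. miR-192 and miR-194 are abundant in liver, gut and kidney epithelium. They are made from clusters, 1 holding a miR-192 and a miR-194 gene and the other a miR-215 and a miR-194 gene. Red blood cells carry their own abundant miRNAs, of which miR-451a and miR-144 are made from a shared precursor transcript.

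The mature sequences are shown with the seed in capitals, to set the miR-192 family beside miR-194 and the main erythroid miRNA. They were taken from RefSeq annotation of GRCm38.p6, in which 2 of the 3 liver-enriched miRNAs had an entry; miR-122-5p is named only.
miR-192-5p: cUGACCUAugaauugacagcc
miR-215-5p: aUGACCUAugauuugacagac
miR-194-5p: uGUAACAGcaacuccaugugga
miR-451a: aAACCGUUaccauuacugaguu
miR-192-5p and miR-215-5p shared the seed UGACCUA, which no other of the 1679 mature names held, and 18 of their 21 bases were identical. Counted from the 5′ end, with miR-192-5p first, they differed by C1A, A12U and C20A. miR-194-5p was the only mature name with the seed GUAACAG.

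The genes of miR-192 and miR-194 lay in 2 clusters. On chromosome 19, Mir194-2 (chr19:6264643-6264728, plus strand) was followed after 115 bases by Mir192 (chr19:6264844-6264932, plus strand), and neither lay inside another annotated gene. On chromosome 1, Mir194-1 (chr1:185313319-185313385, plus strand) was followed after 195 bases by Mir215 (chr1:185313581-185313692, plus strand). This pair lay within the antisense gene 2010103J01Rik and opposite to the protein-coding gene Iars2, with Mir215 in an exon of 2010103J01Rik. The 2 miR-194 precursors are shown with the mature strand in capitals, because this shared strand is why the counts cannot be divided between the genes.
Mir194-1: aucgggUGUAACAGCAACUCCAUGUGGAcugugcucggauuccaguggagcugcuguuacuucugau
Mir194-2: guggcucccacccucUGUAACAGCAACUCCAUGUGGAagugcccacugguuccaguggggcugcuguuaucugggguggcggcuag
The capitals are identical between the precursors, so the row miR-194-5p may hold reads of either gene.

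The counts per library summed to between 1457 and 30202 (median 12248), with 95 to 213 miRNAs holding a count in a library. Levels are given as counts per 10000 counts of the library. The pair of libraries with the most alike counts still differed beyond counting error (1.2 as chi-square over degrees of freedom), so no library was counted as a repeat of another. The libraries fell into 2 sets on overall miRNA levels without the liver-enriched and erythroid rows: set A with 58 libraries, and set B with 27, which held 16 of libraries 1 to 21 and all 11 of libraries 49 to 59. The sets are a description of the libraries and not conditions of the study. Library 14, the shallowest at 1457 counts, scored nearest to set B among set A. Heart muscle miRNAs (miR-1a-3p, miR-133a-3p, miR-208a-3p and miR-499-5p) summed to between 1757 and 2918 per 10000 counts in every library (median 2250). These are the known abundant miRNAs of heart muscle, so the markers of the labelled tissue were present.

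miR-194-5p was the most often detected of the 3, with 431 counts and at least 1 count in 84 of 85 libraries. It ranged from 0 to 13 counts per library (median 5), and its level from 0 to 10.6 per 10000 (median 3.66, quartiles 2.16 and 5.25). Over all libraries together it made up 3.77 per 10000 counts (95% Wilson interval 3.43 to 4.15). miR-122-5p had 399 counts, with at least 1 in 75 libraries. Its counts ran from 0 to 46 (median 3) and its level from 0 to 51.4 per 10000 (median 2.18, quartiles 0.949 and 3.85), for 3.49 per 10000 over all libraries (3.17 to 3.85). miR-192-5p had 254 counts, with at least 1 in 79 libraries. Its counts ran from 0 to 10 (median 3) and its level from 0 to 6.47 per 10000 (median 2.17, quartiles 1.21 and 3.16), for 2.22 per 10000 over all libraries (1.97 to 2.52). In the order of pooled levels, the intervals of miR-194-5p and miR-122-5p overlapped, and that of miR-192-5p lay below both. These intervals leave out the spread between hearts, so they do not establish an order across hearts. In the order of median levels, miR-122-5p and miR-192-5p were alike, and miR-194-5p was above them.

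Few counts stood behind each library's value. More than 3 counts were seen for miR-194-5p in 54 libraries, for miR-122-5p in 34 and for miR-192-5p in 29. A count of 0 allowed a level of up to 0.993 to 20.6 per 10000, depending on the library, with a median of 2.45, which is above the median level of miR-122-5p and of miR-192-5p. A 0 therefore did not show that the miRNA was absent from a heart. The intervals and these limits cover counting error only, and not the spread between hearts. Whether molecular identifiers of the kit were used was not stated. In bulk hearts, fewer cells of a type and less RNA per cell cannot be told apart.

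**Figure D1:**
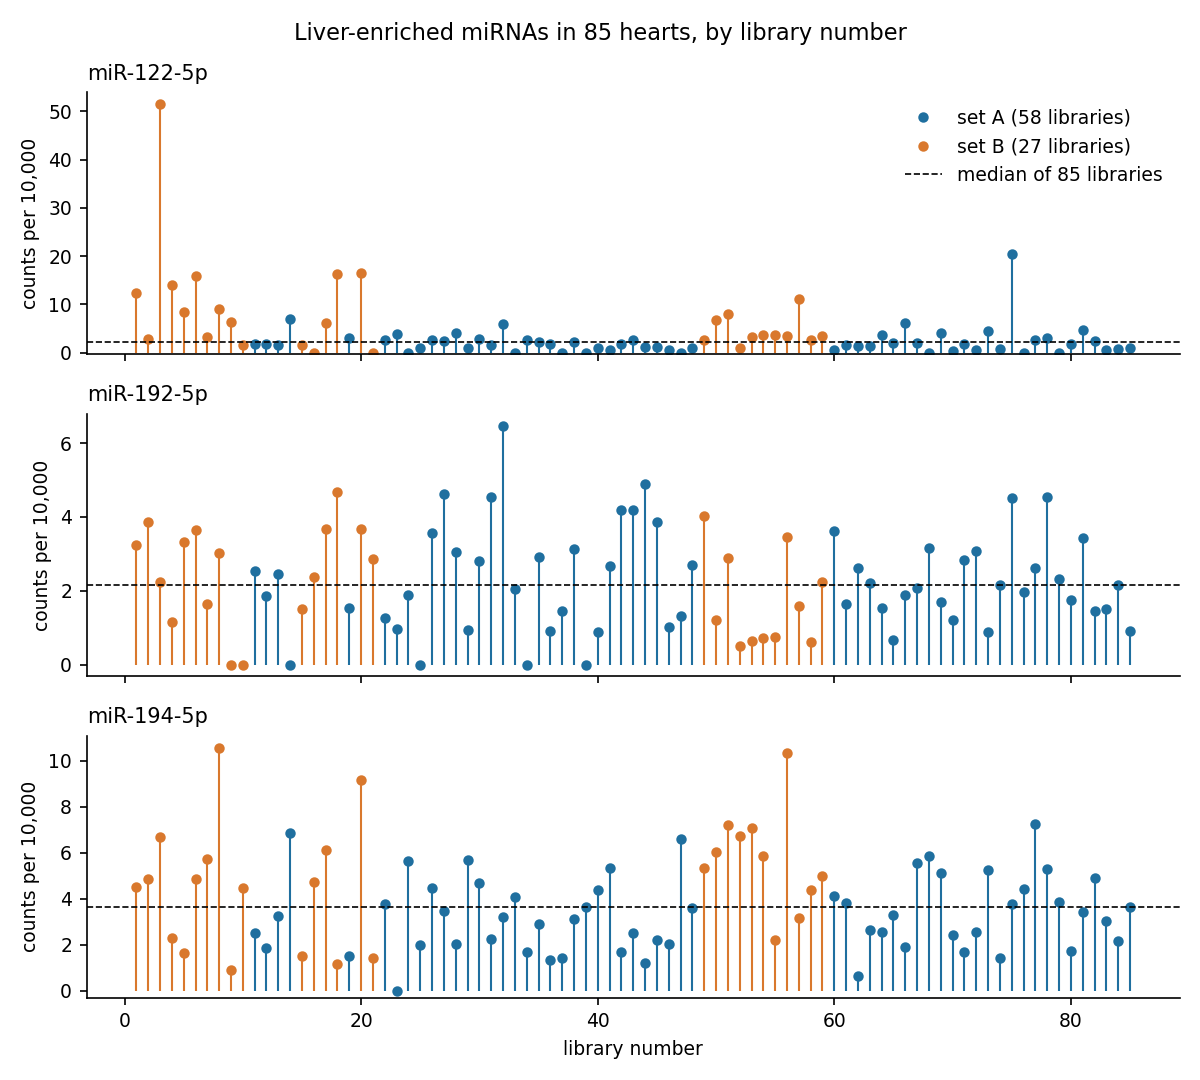
Counts per 10000 counts of the library (y axis, linear, a different range in each panel) of miR-122-5p, miR-192-5p and miR-194-5p against library number (x axis), 1 point per heart; blue is set A, orange is set B, and the dashed line is the median of the 85 libraries. miR-122-5p rose to 51.4 in library 3 and 20.4 in library 75 over a median of 2.18, whereas miR-192-5p stayed at or below 6.47 and miR-194-5p at or below 10.6.

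The 3 miRNAs had similar levels but were spread over the hearts in different ways. miR-122-5p was concentrated in a few of them. Library 3 held 46 counts of 8946 (51.4 per 10000, 38.6 to 68.5), a level 23.6 times the median. It was followed by library 75 with 27 counts of 13266 (20.4 per 10000), library 20 with 9 of 5442 (16.5 per 10000), library 18 with 14 of 8553 (16.4 per 10000) and library 6 with 13 of 8201 (15.9 per 10000). These 5 libraries held 27.3% of all miR-122-5p counts and 3.89% of the library totals. Counts shared out by library total alone would have put miR-122-5p in 82.4 libraries on average, against the 75 seen. Its counts varied far beyond counting error, with a chi-square over degrees of freedom of 12.6, where the median of the 224 miRNAs with a count in at least 17 libraries was 1.62. Without library 3 that chi-square was 6.27 per degree of freedom and the pooled level 3.12 per 10000.

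miR-192-5p, in contrast, had no library that stood out. Its chi-square was 1.03 per degree of freedom, so that at this depth its spread over 85 hearts was close to that of counting error, and 183 of the 224 miRNAs had a higher value. Its 5 highest libraries held 11.02% of its counts and 4.73% of the totals. The highest, library 32, had 10 counts of 15469 (6.47 per 10000, 3.51 to 11.9), and libraries 44, 18, 27 and 78 followed with 4 to 6 counts each. miR-194-5p lay between the other two, at 1.39 per degree of freedom, and its 5 highest libraries held 10.4% of its counts and 4.62% of the totals. Library 8 was highest with 7 counts of 6630 (10.6 per 10000, 5.12 to 21.8), then library 56 with 12 counts of 11581 (10.4 per 10000), and libraries 20, 77 and 51 with 5 to 11 counts.

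Variation beyond counting error can be put as a coefficient of variation between hearts, taken here from the dispersion estimated by edgeR. It was 1.07 for miR-122-5p, with 6 of the 224 miRNAs higher, 0.154 for miR-192-5p and 0.268 for miR-194-5p, and the median miRNA had 0.408. Of the erythroid miRNAs, miR-144-3p had 1.04 and miR-451a 0.571. These values are descriptions of the libraries as they stand, sets and library order included. Within set A alone the chi-square of miR-122-5p was 5.42 per degree of freedom and within set B 12.8, whereas miR-192-5p had 1.05 and 0.996 and miR-194-5p 1.06 and 1.35.

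**Figure D2:**
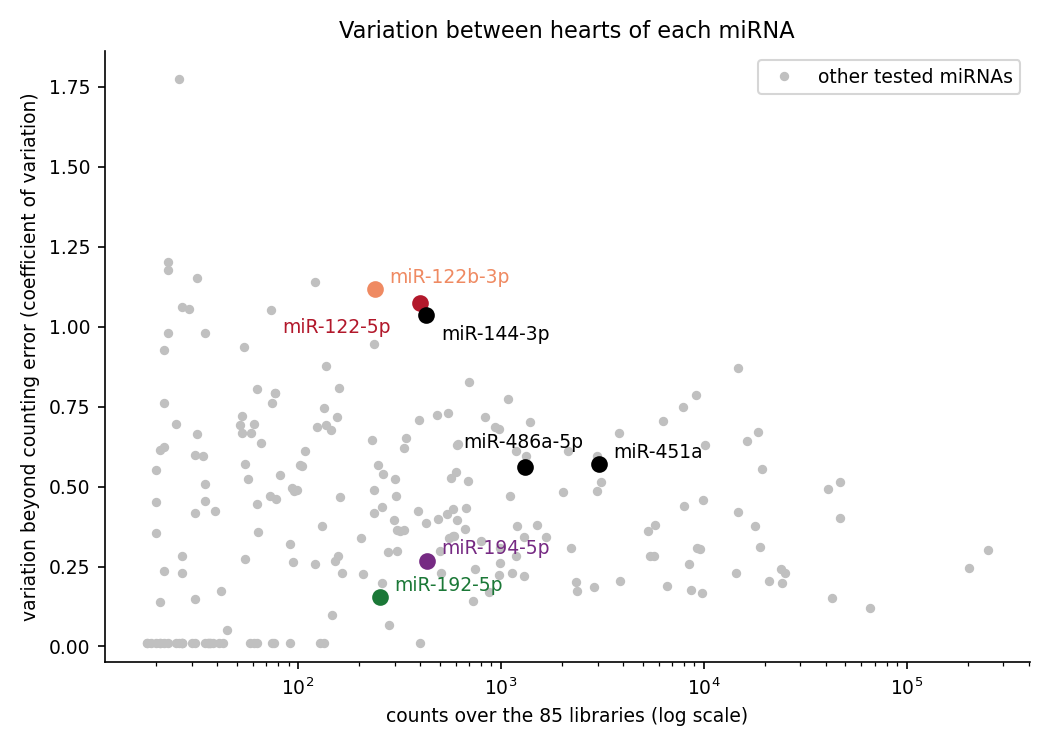
Coefficient of variation between hearts beyond counting error (y axis, linear) against the counts of each miRNA over all 85 libraries (x axis, log scale) for the 224 tested miRNAs, with the liver-enriched rows and 3 erythroid rows named. miR-122-5p (1.07) and miR-122b-3p (1.12) lie near the top, and miR-192-5p (0.154) and miR-194-5p (0.268) below the median of 0.408.

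The row closest to miR-122-5p was miR-122b-3p. Mir122 lay at chr18:65248861-65248926, in an exon of the long noncoding RNA AC157910.3, and the interval of a second annotated gene, Mir122b (chr18:65248863-65248921), lay wholly inside it. The strand setting of the counting was not given in the sources used here, so the rows of miR-122-5p and miR-122b-3p are uncertain as separate measurements. It held 239 counts, with at least 1 in 68 libraries and a highest level of 22.4 per 10000, also in library 3. There were 0.599 counts of miR-122b-3p for each count of miR-122-5p, 0.694 in set A and 0.527 in set B. miR-122-5p had the more counts of the pair in 50 libraries, miR-122b-3p in 16, and they were equal in 19, of which 7 had none of either. The 5 libraries highest in miR-122-5p, 3, 75, 20, 18 and 6, ranked 1, 4, 3, 6 and 7 in miR-122b-3p.

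The other rows listed, opposite strands of these precursors and other liver-enriched miRNAs, were at or near 0. Whether liver RNA would give counts in them at this depth was not tested. The opposite strands miR-192-3p, miR-194-1-3p and miR-194-2-3p had no count in any library, which for each allows up to 3 counts over all libraries together. miR-122-3p had 3 counts in 3 libraries. miR-215-5p, the seed partner of miR-192-5p printed above and the cluster partner of Mir194-1, had 20 counts in 13 libraries, against the 254 of miR-192-5p. miR-802-5p, another miRNA known from liver, had 3 counts in 2 libraries, and miR-802-3p had none. This list of 7 rows, 4 of them at 0, summed to between 0 and 2.36 per 10000 over the libraries (median 0), against 2.90 to 60.4 (median 7.91) for the 3 liver-enriched miRNAs together. For comparison, 7 epithelial rows of the miR-200, miR-203 and miR-375 families, miRNAs of gut, kidney and airway lining, summed to between 0 and 7.24 per 10000 (median 2.05), with the miR-375-3p row at 0. Neuronal miR-9-5p and miR-124-3p summed to between 0 and 7.91 (median 2.53), with miR-124-3p at 0.

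No library was among the 5 highest of all 3 liver-enriched miRNAs. Library 18 was the only library among the 5 highest of both miR-122-5p and miR-192-5p, library 20 the only such library of miR-122-5p and miR-194-5p, and miR-192-5p and miR-194-5p shared none. Library 3, the highest in miR-122-5p, held 2 counts of miR-192-5p (2.24 per 10000, rank 40 of 85) and 6 of miR-194-5p (6.71 per 10000, rank 9). Library 75 held 6 counts of miR-192-5p (rank 7) and 5 of miR-194-5p (rank 41). Library 18 held 4 counts of miR-192-5p (rank 3) and 1 of miR-194-5p (rank 82).

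Across all libraries, the relation of each pair was measured on log2 CPM (counts scaled to a common library total) centred within the 2 sets, so that a difference between the sets could not make a relation. Each liver-enriched miRNA was set against all other tested miRNAs, 666 pairs in all, with two-sided permutation tests within sets and Benjamini-Hochberg adjustment over the 666. miR-122-5p and miR-192-5p had r = 0.215 (95% interval 0.00104 to 0.411, permutation p = 0.0529, adjusted p = 0.678) and a Spearman's rho of 0.234 (permutation p = 0.0346, adjusted p = 0.88). Within set A r was 0.162, within set B 0.292, and 0.182 after leaving out libraries 3 and 75, which lay farthest from the miR-122-5p median. This relation did not pass the adjustment. For miR-122-5p and miR-194-5p r was 0.0228 (-0.193 to 0.236, permutation p = 0.848, adjusted p = 0.978) and rho was -0.0131 (permutation p = 0.908). Set A gave -0.0426, set B 0.0946, and all but the 2 farthest libraries -0.0302. For miR-192-5p and miR-194-5p, whose genes are neighbours on chromosome 19, r was 0.0643 (-0.152 to 0.275, permutation p = 0.567, adjusted p = 0.911) and rho was 0.0357 (permutation p = 0.749). Set A gave -0.00615 and set B 0.176. Without libraries 34 and 39, which lay farthest from the miR-192-5p median at a count of 0 each, r was 0.0513. The intervals of these 3 r reached up to 0.411, 0.236 and 0.275. They describe r between counted values, at medians of 3 to 5 counts per heart. The spread of miR-192-5p was close to counting error (chi-square 1.03 per degree of freedom). A small r could therefore not show that the levels in the hearts were unrelated, and the intervals set no limit on that relation.

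Of the 223 miRNAs tested against each, 1 was called with miR-122-5p (0.448%) and 0 with miR-192-5p and with miR-194-5p (0%), by the permutation test, whereas 11, 19 and 14 had an unadjusted p under 0.05. The call was miR-122b-3p, at r = 0.765 (0.658 to 0.841, permutation p = 1e-05, the smallest that 100000 permutations can give, adjusted p = 0.00666) and rho = 0.672 (permutation p = 1e-05). Set A alone gave r = 0.70, set B r = 0.834, and the libraries other than 3 and 75 r = 0.702. Because the genes of both rows lie at 1 place in the genome, the rows may share reads, which was not tested. After miR-122b-3p, the largest r with miR-122-5p were with miR-127-3p (-0.321, adjusted p = 0.477) and miR-204-5p (0.292, adjusted p = 0.607). Those with miR-192-5p were with miR-542-3p (0.339, adjusted p = 0.304), miR-361-5p (0.327, adjusted p = 0.453) and miR-19a-3p (0.308, adjusted p = 0.477). With miR-194-5p they were miR-15a-5p (0.339, adjusted p = 0.304), the heart muscle miRNA miR-1a-3p (0.280, adjusted p = 0.678) and miR-181a-5p (-0.279, adjusted p = 0.607). None of these passed the test with library totals as the scale. For miR-194-5p with miR-1a-3p, set A alone gave -0.0324 and set B 0.497, and rho was 0.111 (permutation p = 0.326). Over the 4 heart muscle rows, r with miR-194-5p ran from -0.031 to 0.28, with 0 of 4 called and 2 at an unadjusted p under 0.05. With DESeq2 size factors, miR-542-3p (r = 0.386, adjusted p = 0.044) was called with miR-192-5p, and miR-15a-5p (0.422, adjusted p = 0.0133), miR-1a-3p (0.401, adjusted p = 0.044) and miR-1b-5p (0.395, adjusted p = 0.044) with miR-194-5p.

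**Figure D3:**
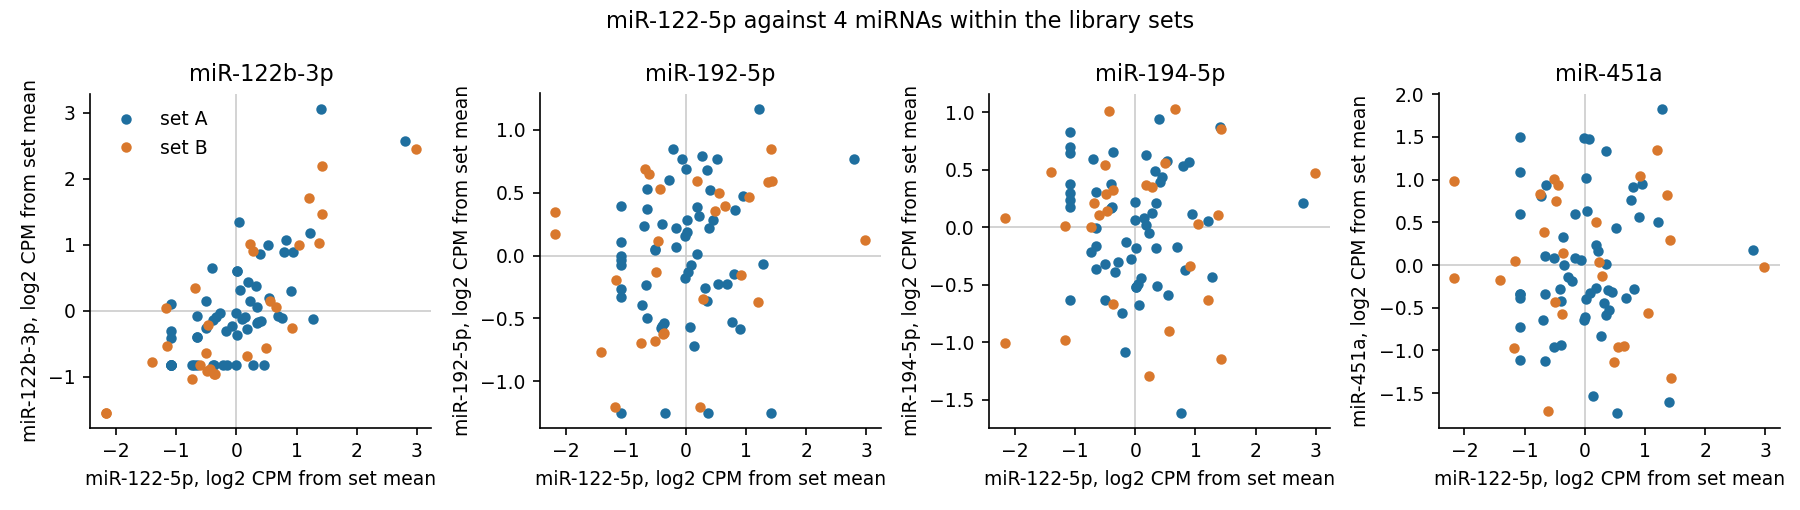
Log2 CPM of 4 miRNAs (y axes) against that of miR-122-5p (x axes), each as the difference from the mean of its library set, 1 point per heart, blue for set A and orange for set B; points in a vertical line share a count of 0. miR-122b-3p rises with miR-122-5p (r = 0.765), and miR-192-5p (0.215), miR-194-5p (0.0228) and miR-451a (0.0242) form clouds.

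The erythroid list, used here as markers of blood, had counts in every library. No relation of its rows with a liver-enriched miRNA passed the test. Whether its miR-486 rows mark blood in a heart was not tested. The erythroid list of 7 rows summed to between 23.5 and 215.1 per 10000 (median 55.5). This sum adds both miR-486a-5p and miR-486b-5p, so it holds the same counts more than once. miR-451a had 3047 counts, at least 1 in every library, and a level of 3.88 to 88.3 per 10000 (median 19.4). miR-144-3p had 430 counts in 64 libraries, and miR-486a-5p had 1322 in all 85. The row miR-486b-5p was identical to miR-486a-5p in all 85 libraries, so these rows count as 1 measurement. For miR-451a, r was 0.0242 with miR-122-5p (-0.191 to 0.237, permutation p = 0.829, adjusted p = 0.976), 0.0562 with miR-192-5p (-0.16 to 0.267, permutation p = 0.609, adjusted p = 0.917) and -0.191 with miR-194-5p (-0.389 to 0.0249, permutation p = 0.0847, adjusted p = 0.728). The corresponding rho were 0.0323 (permutation p = 0.772), 0.0304 (permutation p = 0.782) and -0.178 (permutation p = 0.107). Without the 2 libraries farthest in the liver-enriched miRNA, r was 0.02, 0.0605 and -0.172. In the same order, set A alone gave 0.0812, 0.145 and -0.166, and set B -0.0523, -0.117 and -0.235.

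Over the 7 erythroid rows, r with miR-122-5p ran from -0.0934 to 0.175, with miR-192-5p from -0.0683 to 0.0788 and with miR-194-5p from -0.228 to -0.0976. By the permutation test 0 of 7 were called with any of the 3, beside the 0.448%, 0% and 0% of all tested miRNAs, and 0, 0 and 2 had an unadjusted p under 0.05. The rank measure for miR-144-5p with miR-122-5p was larger than its r of 0.175, at a rho of 0.25 (permutation p = 0.0211, adjusted p = 0.88), or 0.30 in set A (permutation p = 0.023, adjusted p = 0.806), and did not pass the adjustment. Those with an unadjusted p under 0.05 were the identical rows miR-486a-5p and miR-486b-5p with miR-194-5p (r = -0.228, permutation p = 0.0435, adjusted p = 0.678), where set A alone gave -0.0778 and set B -0.423. The hearts highest in miR-122-5p, libraries 3, 75, 20, 18 and 6, ranked 60, 29, 84, 41 and 26 of 85 in miR-451a. In the same order, their miR-486a-5p levels were 15.65, 2.26, 18.4, 84.2 and 6.10 per 10000, against a median of 10.4. Library 18 thus held the highest miR-486a-5p level of all 85 libraries and library 75 the lowest. Leukocyte miRNAs (miR-142a, miR-223, miR-150 and miR-155, 5 rows), which summed to between 40.6 and 424 per 10000 (median 148), likewise gave 0 of 5 calls with each, and 0, 1 and 1 at an unadjusted p under 0.05. The 2 were miR-223-3p with miR-192-5p (r = 0.239, adjusted p = 0.678) and miR-150-5p with miR-194-5p (r = -0.247, adjusted p = 0.678). At the low counts of the liver-enriched miRNAs, a small r with blood rows could not show that levels in the hearts were unrelated. The spread of miR-192-5p was close to counting error (chi-square 1.03 per degree of freedom), and miR-144-3p had 14 counts in set B.

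**Figure D4:**
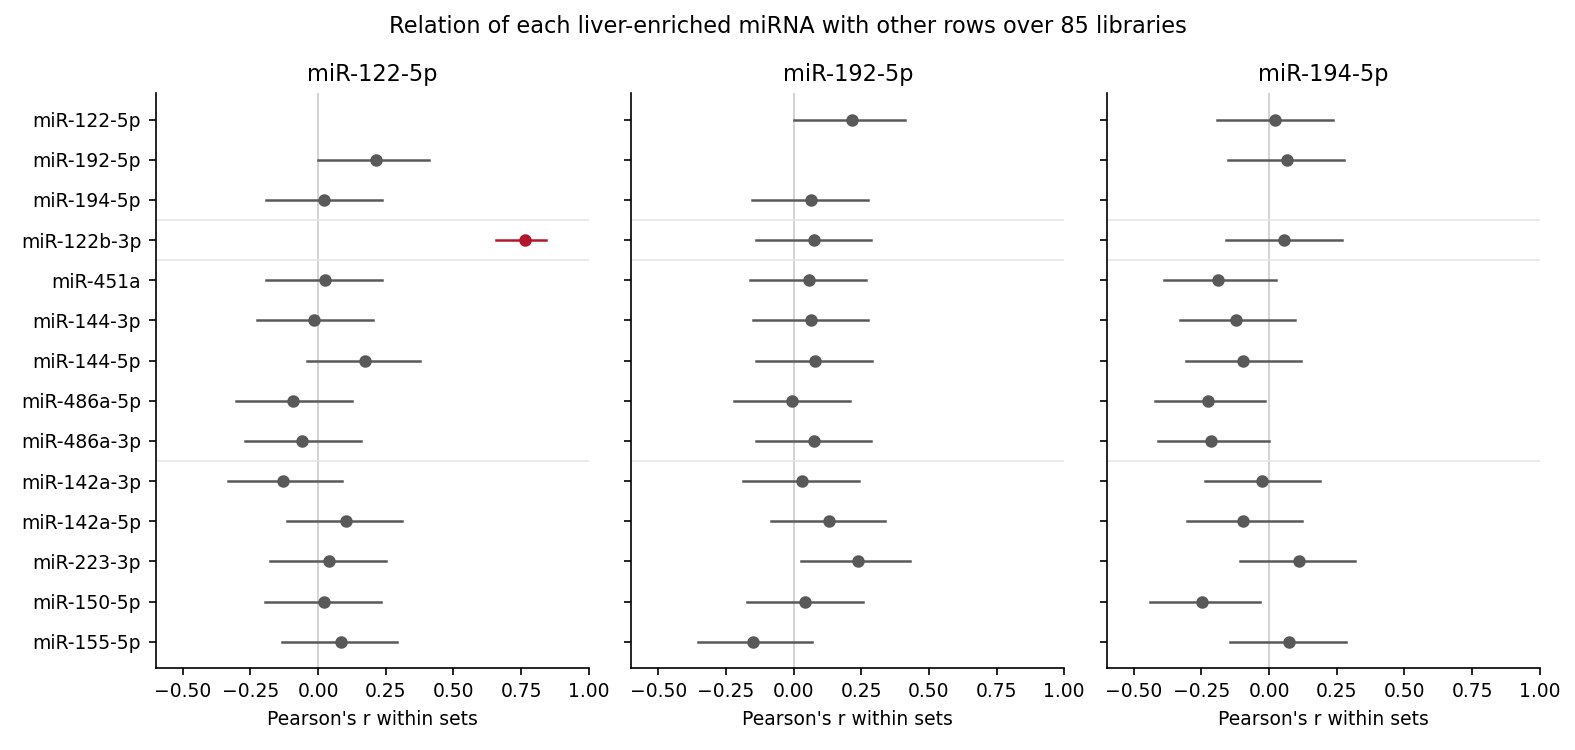
Pearson's r within the library sets (x axis) of miR-122-5p, miR-192-5p and miR-194-5p (panels) with each other, with miR-122b-3p, and with erythroid and leukocyte miRNAs (y axis), over 85 libraries; lines are 95% intervals and red marks an adjusted p under 0.05. Only miR-122b-3p with miR-122-5p (0.765) is red, and the erythroid values lie between -0.228 and 0.175.

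miR-122-5p fell with library number, and with library totals as the scale no slope was called for miR-192-5p or miR-194-5p. Its median level was 6.11 per 10000 in libraries 1 to 21, 1.51 in libraries 22 to 48, 3.45 in libraries 49 to 59 and 1.67 in libraries 60 to 85. Levels above 10 per 10000 were seen in 6, 0, 1 and 1 libraries of these stretches. The median of miR-192-5p was 2.45, 2.68, 1.21 and 2.12, and that of miR-194-5p 4.46, 3.14, 5.87 and 3.54. miR-122-5p thus had its higher medians in the stretches that held set B, and libraries 49 to 59 had the highest median of miR-194-5p and the lowest of miR-192-5p. The ranges of the 4 stretches overlapped for each of the 3 miRNAs.

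The slope with library number was fitted over all 224 miRNAs with edgeR's quasi-likelihood test and Benjamini-Hochberg adjustment, as log2 change per 10 libraries. Of the 224, 108 (48.2%) were called, 80 falling (35.7%) and 28 rising (12.5%), so 1 of 3 liver-enriched miRNAs falling is close to the background. miR-122-5p fell by 0.24 (SE 0.060, adjusted p = 0.000446), a fitted level in the last library of 0.242 times that in the first. Without library 3 it fell by 0.16 (adjusted p = 0.0215), and the call was kept in all 85 fits that left out 1 library. With DESeq2 size factors in place of totals it also fell by 0.16 (adjusted p = 0.017). miR-192-5p had a slope of -0.028 (SE 0.040, adjusted p = 0.562) and miR-194-5p of 0.006 (SE 0.035, adjusted p = 0.894), and neither was called. The slope of miR-194-5p was 0.0892 with DESeq2 size factors (adjusted p = 0.0248), which was called. Directions in this table depend on the scale: 25.9% of the calls rose with library totals, 38.1% with TMM factors and 61.3% with DESeq2 size factors, and the median slope of all tested miRNAs was -0.0574, -0.0315 and 0.0122.

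The slope of miR-122-5p moved together with the library sets. Its median level was 1.69 per 10000 in set A (0 to 20.4) and 3.72 in set B (0 to 51.4), and its pooled level 2.08 and 7.33, or 6.01 in set B without library 3. With the set as a covariate the slope was -0.105 and was no longer called (adjusted p = 0.25), in a fit that called 47 of 224 (21%). Within set A it was 0.0738 (adjusted p = 0.557), and within set B -0.279 (adjusted p = 0.0393). Library 3 held 46 of the 226 miR-122-5p counts of set B, and no fit within set B was made without it. miR-122b-3p fell by 0.20 over all libraries (adjusted p = 0.00898), and had a slope of -0.14 without library 3 (adjusted p = 0.0756). Sets A and B had medians of 2.12 and 2.24 for miR-192-5p, and of 3.25 and 4.88 for miR-194-5p, with overlapping ranges. The sets were made from these libraries, so no test between them was made, and the part of the sets in the slope beyond these fits was not tested.

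Erythroid miRNAs also changed with library number, but not in a common direction. miR-451a rose by 0.11 per 10 libraries (adjusted p = 0.0115) and miR-144-3p by 0.28 (adjusted p = 0.000139), whereas miR-486a-5p fell by 0.17 (adjusted p = 4.89e-05) and miR-486a-3p by 0.14 (adjusted p = 0.00218). Of the 7 rows, 2 rose and 4 fell, beside the 12.5% and 35.7% of all tested miRNAs. The 4 were all miR-486 rows and include the identical rows miR-486a-5p and miR-486b-5p. miR-144-5p had a slope of 0.12 (adjusted p = 0.0557). With the set as a covariate, which called 21% of all tested miRNAs, miR-144-3p alone of the 7 was called (slope 0.154, adjusted p = 0.0312). In that fit miR-451a had a slope of 0.0731 (adjusted p = 0.157), miR-486a-5p of -0.0756 (adjusted p = 0.0794) and miR-486a-3p of -0.0632 (adjusted p = 0.273). Between the sets, miR-144-3p had a median of 3.80 per 10000 in set A and 0 in set B, where 8 of 27 libraries held a count. miR-451a had 21.2 and 16.4, and miR-486a-5p had 8.28 and 16.2. miR-122-5p, with 1.69 and 3.72, thus lay on the side of miR-486a-5p and opposite to miR-451a and miR-144-3p between the sets, although within the sets its r with each of them was near 0.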

How the data were processed

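Small RNA was measured in 85 hearts, 1 library each. Total RNA was isolated with miRNeasy kits and libraries were made with the QIAseq miRNA kit. Per the labels and the submitters' processing notes, the authors mapped reads with HISAT2 2.0.6 to mm10 and counted them with HTSeq 0.13.5. The deposited values are raw counts, whole numbers with no normalization, for each mature miRNA. Adapter trimming, the miRNA annotation, the strand setting, the treatment of reads with several matches and the use of molecular identifiers were not given in the sources used here. Totals ran from 1457 to 30202 counts (median 12248), so a level of 1 to 4 per 10000 rests on a few counts. With 1 library per heart there were no technical replicates. The p-values measure the spread between libraries, in which strain, animal and library preparation cannot be told apart.

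The liver-enriched miRNAs and the marker lists were chosen with earlier results of these data known. Levels are counts divided by the library total. Slopes with library number were fitted in edgeR 4.0.16 (R 4.3.3) with glmQLFit and glmQLFTest, library totals as offsets, on the 224 miRNAs with a count in at least 17 libraries, with a threshold of 0.05 on the Benjamini-Hochberg adjusted p. Relations were Pearson's r and Spearman's rho of log2 CPM with a prior count of 2, centred within sets, with 100000 permutations within sets. Their 95% intervals used Fisher's transformation. Sets came from 2-means on the first principal component (76.6% of variance) of TMM-scaled log2 CPM of 51 miRNAs kept by filterByExpr, less the liver-enriched and erythroid rows. Alternatives were TMM, DESeq2 1.42.0 size factors and Wald test, no filter, filterByExpr, a prior count of 0.5, the 84 libraries of at least 3000 counts, covariates, each set alone and each library left out. Summing miR-122-5p with miR-122b-3p, and leaving out library 3, were chosen after seeing the data. Named miRNAs are the 3 liver-enriched ones, the marker lists, the other strands of their precursors and, for each, the 3 with the largest r; miR-122b-3p, miR-92a-3p and miR-1b-5p were otherwise chosen after their values were seen. The fits were run on simulated data, with values that were not counts for the relations and with counts without library sets for the slopes. These runs do not show how r behaves at low counts, or how slopes behave where there are sets. Python 3.11.15, numpy 2.4.6, scipy 1.17.1, pandas 2.3.3 and matplotlib 3.10.9 were used. Sequences and positions came from RefSeq, and overlapping genes from GENCODE annotation of the same assembly. The strains, genotypes and heart weights were left out.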

Additional observations from a re-analysis of the deposited data

How the results depend on the processing

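Each liver-enriched miRNA had a median of 3 to 5 counts per heart, and the size of relation detectable at this depth was not measured. Labels give 1 group. No paired analysis was possible because there were no groups to pair. Of the values that answer a comparison, 119 alternatives kept direction and call, 1 lost a call, 1 gained a call, 12 changed sign and 9 counts moved by more than 1.5 times; the causes were not tested unless a setting's fewer miRNAs or libraries show it. The slope of miR-122-5p was -0.105 with the set as a covariate and 0.0738 in set A, and ran from -0.307 to -0.161 when 1 library was left out. The slope of miR-192-5p was 0.0028 with TMM and 0.0509 with DESeq2 size factors. That of miR-194-5p was 0.0892 with DESeq2 size factors and ran from -0.00306 to 0.0203 with 1 library left out. The 108 calls became 44 with filterByExpr, which tests 51 miRNAs and none of the 3, 47 with the set as a covariate, 71 with log2 total as a covariate, 33 in set A and 16 in set B. The r of miR-122-5p with miR-194-5p was -0.0131 as rho, -0.0238 with a prior count of 0.5, -0.00712 in libraries of at least 3000 counts, -0.0426 in set A, -0.0302 without the 2 farthest libraries, -0.013 without library 3, and -0.033 to 0.0655 with 1 library left out. That of miR-192-5p with miR-194-5p was -0.00615 in set A. Calls with miR-122-5p went from 1 to 0 when its counts were summed with miR-122b-3p, which then no longer was a separate row. Calls with miR-192-5p went from 0 to 1 with DESeq2 size factors and to 1 in set A (miR-92a-3p, r = 0.499), and those with miR-194-5p from 0 to 3 with DESeq2 size factors. Among the other values, 252 kept direction and call, 18 lost a call, 4 gained one and 28 changed sign. The slope in set A was 0.137 for miR-122b-3p and -0.0109 for miR-144-5p. The r of miR-122-5p with miR-451a was -0.0523 in set B, -0.0313 with miR-122b-3p summed in, and -0.0154 to 0.0641 with 1 library left out. Its r with miR-144-3p was 0.0403 as rho, 0.0273 with DESeq2 size factors, 0.0285 given log2 total, 0.0315 given library number, 0.0344 in libraries of at least 3000 counts, 0.0167 in set B, 0.0296 without the 2 farthest, 0.00089 without library 3, and -0.0484 to 0.0344 with 1 library left out, and with miR-486a-5p it was 0.00826 without the 2 farthest. For miR-192-5p in set B, r was -0.117 with miR-451a, -0.0939 with miR-144-3p, -0.021 with miR-144-5p and -0.182 with miR-486a-3p, for which rho was -0.0116. Its r with miR-486a-5p was 0.152 as rho, 0.00929 with TMM, 0.0105 with DESeq2 size factors, 0.00717 given log2 total, 0.051 in libraries of at least 3000 counts, 0.0179 in set A and -0.0865 to 0.0772 with 1 library left out. The r of miR-194-5p with miR-144-5p was 0.173 in set B.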
